A study of Mus musculus with 96 samples.

Results

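Among the mRNAs of the embryonic mouse neural tube, 896 of 11791 genes (7.60%) had an annotated 5' untranslated region (5' UTR) of 1 to 40 nt. Each gene was represented by the transcript with the most coding counts in the deposited table. Members were chosen by the annotated length of that transcript's 5' UTR and by measured RNA, with at least 100 coding counts required over the wild-type RNA libraries. Of 22422 genes with a coding transcript, 2222 were in this length window and 1326 of them fell under the count minimum. The data are ribosome footprints, the pieces of mRNA left after nuclease digestion because a ribosome covers them, and RNA-seq of fragmented poly(A) RNA, from E11.5 neural tubes. The labels also give a range of 20 to 23 somites, and how it relates to E11.5 was not examined. Wild type (C3HeB) was set against animals heterozygous for the Xs-J allele of Eif3c on the same background (C3HeB/Eif3cXs-J/+), here called mutant. Neural tubes from 1 litter were dissociated with papain and the cells divided between RNA and footprints, so that each of the 3 pools per genotype has a library of either kind, 12 in all. Whether each pool is a litter of its own is not stated in the labels, and p-values cover only how far these pools vary, which may in part be technical. Footprint lysates contained cycloheximide, an inhibitor of elongation, and fragments of 28 to 31 nt were cut from the gel.

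Most eukaryotic mRNAs are read by scanning: the small ribosomal subunit, loaded near the cap with the help of the factor eIF3, moves along the 5' UTR until it meets a start codon. On a very short leader there is little or no room to scan, and a start codon close to the cap is often passed over. A sequence element named TISU (translation initiator of short 5' UTR) surrounds the start codon of some such mRNAs, many of them encoding housekeeping and mitochondrial proteins, and supports initiation without scanning. Eif3c encodes a core subunit of eIF3.

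The start codons of representative members are printed here because the short leader and the bases around the start codon define this class. Each line runs 5' to 3' from at most 12 bases before the start codon to 12 bases from its first letter, read from the GENCODE vM21 transcript, with the GRCm38 (mm10) position. Each window lies in the 5' UTR and coding sequence of the transcript's exons. The first set holds members with the TISU core, AAGATGG with its ATG at the annotated start codon, in capitals.

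Eif3f, chr7:108934420-108934443, plus strand: tttctcggcAAGATGGcttctccg

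Psma2, chr13:14613263-14613286, plus strand: ttccgggtaAAGATGGcagagcgc

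Puf60, chr15:76080862-76080885, minus strand: gacggacgcAAGATGGcgacggcg

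Ubr4, chr4:139380675-139380698, plus strand: gtacgacgaAAGATGGcgacgagc

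Smarcc2, chr10:128459321-128459338, plus strand: gagAAGATGGcggtgcgg

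Glg1, chr8:111259185-111259208, minus strand: cgcgaacccAAGATGGcggtgtgt

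Senp6, chr9:80067512-80067535, plus strand: ggaaggaggAAGATGGcggcgggc

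Glyr1, chr16:5049832-5049855, minus strand: ttgggtggtAAGATGGcggctgtg

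Lin7c, chr2:109890873-109890896, plus strand: tccgaagagAAGATGGcggcgctg

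In Senp6, Glyr1 and Lin7c the core was followed directly by CGGC, which is called the strict form below. The second set has only the ATG in capitals. It holds members whose leader is so short that the line begins at the annotated first base of the transcript, and the members on which the comparisons between genotypes turn.

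Klc1, chr12:111772319-111772331, plus strand: gATGtatgacaac

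Med12, chrX:101274260-101274272, plus strand: gATGgcggctttc

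Adgrb2, chr4:129992068-129992080, plus strand: gATGaccccagcc

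Golgb1, chr16:36886134-36886147, plus strand: agATGctgagccga

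Hist1h4d, chr13:23581598-23581613, plus strand: taacATGtctggacgc

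Hist2h4, chr3:96263293-96263311, minus strand: attagccATGtctggcaga

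Celsr1, chr15:86033759-86033777, minus strand: ccgggccATGgcgccgtca

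Dpf3, chr12:83487697-83487716, minus strand: gtagcaaaATGgcgactgtc

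Rtl8c, chrX:53608034-53608057, plus strand: gacctcgccgccATGgaccgccgg

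Atp9a, chr2:168741912-168741935, minus strand: ggagcggggcccATGgtgcggccg

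Hba-a2, chr11:32296512-32296535, plus strand: caggaagaaaccATGgtgctctct

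The TISU core stood at the start codon of 150 of the 836 members whose transcript sequence could be read and began with ATG (17.9%). It was searched on the sense strand and only at the annotated start codon. Only the exact letters AAGATGG were matched, so other forms of the element were not counted. The same core was present in 6.33% of genes with a 5' UTR of 41 to 100 nt, 3.71% between 100 and 200 nt, 3.70% between 200 and 500 nt, 3.56% above 500 nt and 5.18% of all 11173 genes with a sequence. The strict form was found in 65 members (7.78%), against 1.25% of all genes. Within the members the core was most frequent at leader lengths of 11 to 20 nt, with 41 of 161 genes (25.5%), and least frequent at 31 to 40 nt, with 36 of 308 (11.7%). The shares at 1 to 10 nt and 21 to 30 nt were 18.6% and 20.4%. These shares describe the annotation, and a match to the letters does not show that the element is used.

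**Figure D1:**
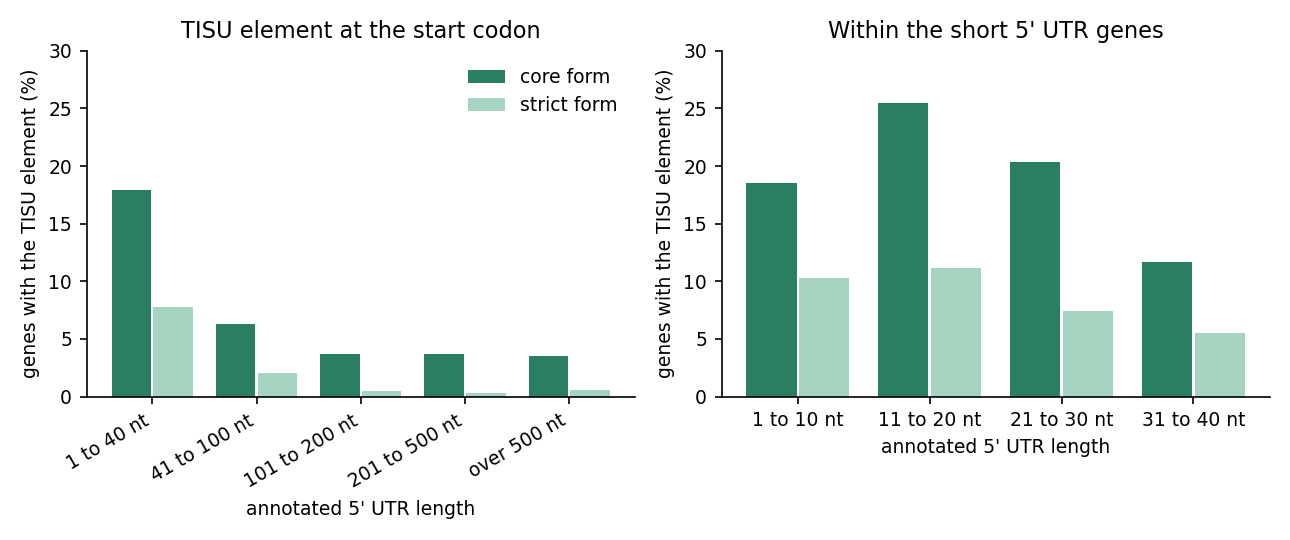
Share of genes (%) with the TISU core (dark bars) or its strict form (light bars) at the annotated start codon, by annotated 5' UTR length over all genes with 100 or more wild-type RNA counts (left) and within the short 5' UTR genes (right). The core stands at 17.9% in the shortest class and between 3.56% and 6.33% in the longer ones.

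Other features of the start codon were compared in the same way. A purine 3 bases before the ATG, the most conserved base of the mammalian start context, was present in 87.0% of members and 86.3% of all genes. A G directly after the ATG was present in 72.6% of members, against 60.3% at 41 to 100 nt, 47.7% above 500 nt and 53.3% of all genes. Both together were found in 65.6% of members and 46.1% of all genes. A transcript start with C followed by 4 pyrimidines, a form of the terminal oligopyrimidine start of ribosomal protein mRNAs, was annotated in 2.63% of members and 2.21% of all genes.

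The TISU core was unevenly spread over the gene families that contribute members. Of the 12 members among nuclear-encoded respiratory chain and ATP synthase subunits, 11 had a readable start and 7 of those had the core, among them Ndufa3 and Sdhc. It was present in 4 of 8 proteasome members (Psma2 and Psmb6 among them), in 5 of 18 mitochondrial ribosomal protein members (Mrps27 among them) and in 2 of 10 cytosolic ribosomal protein members (Rps15 and Rpl7l1). Of the eIF3 subunits, 3 of the 12 measured had a short 5' UTR, and Eif3e and Eif3f carried the core while Eif3b did not. None of the 5 replication-dependent histone members had it.

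Families differed in how many of their genes were members. Short 5' UTRs were annotated for 19 of 76 measured mitochondrial ribosomal protein genes (25%), 9 of 44 proteasome genes (20.5%), 12 of 73 respiratory chain genes (16.4%), 10 of 73 cytosolic ribosomal protein genes (13.7%) and 5 of 15 histone genes (33.3%). Among numbered Zfp zinc finger genes 16 of 310 (5.16%) were members, and among RNA polymerase subunits 1 of 26 (3.85%), beside 7.60% over all genes. The median 5' UTR of the members was 26 nt with quartiles of 17 and 33 nt, and 105 members had 10 nt or less.

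The length is that of the annotated transcript and was not measured in these libraries. For 538 members every annotated coding transcript had a 5' UTR of at most 40 nt, while 358 also had a coding transcript with a longer one, and in 176 of these the longer transcript held at least 90% of the counts of the chosen one. RefSeq gene starts were matched for 865 members. The start was within 20 nt of the RefSeq start in 304 of them (35.1%), and RefSeq placed the gene start more than 100 nt further upstream in 295 (34.1%); the shares over all genes were 33.9% and 34.2%. Sox2, the transcription factor of neural progenitors, is annotated with a leader of 11 nt while the RefSeq gene starts 410 nt upstream.

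At the limits of the rule, the most abundant genes just inside were Puf60 (a splicing factor), Usp5 (a deubiquitinase) and Cebpz, with 40 nt, and those just outside were Zfp292, Ptpn13 and Mtrex, with 41 nt. Their wild-type log2 ratios of footprints to RNA were 0.31, 0.52 and 0.05 inside and -0.68, -1.39 and 0.50 outside. At the count minimum, Dscaml1, Rsl1 and Naaa with 100 to 104 counts were inside, and Lrrc29 and Mical2 with 96 and Mmp9 with 95 were outside.

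Coding counts per library ran from 7200322 to 13137407 for RNA and from 11310843 to 59202834 for footprints. Eif3c, the gene that carries the mutation, had 474 to 518 CPM (the coding counts scaled to a common library total) in wild-type RNA and 289.8 to 302 CPM in mutant RNA, and the footprints were 739.9 to 760.2 and 355 to 403 CPM, which places every library with its label. All 10 neural progenitor and all 10 neuron markers were detected, as were markers of blood, endothelium, mesenchyme and macrophages. In wild-type RNA the progenitor markers summed to 2840 to 2946 CPM, the erythroid markers to 2758 to 3416 CPM and the macrophage markers to 47 to 71 CPM. Neuron markers summed to 4915 to 5021 CPM in wild-type RNA and 3793, 4583 and 3961 CPM in mutant pools 1, 2 and 3. Mutant pool 2 stood nearest to wild type, and more genes are called when it is left out, as given beside each result.

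The members spanned a wide range of abundance, from 100 to 28040 wild-type RNA counts with a median of 1040.5. Per kilobase of coding sequence the most abundant was Rps15, a protein of the small ribosomal subunit, at 761 CPM per kb in wild-type RNA. The splicing regulator Hnrnpl had 531 and the ribosomal protein gene Rpl22 460.0 CPM per kb. The kinesin light chain Klc1, the cytochrome oxidase subunit Cox6a1, the poly(A)-binding protein Pabpn1 and the neurofilament Nefm were between 385 and 421 CPM per kb. Ribosomal protein genes have many near-identical pseudogene copies, and how reads that match several places were counted is not given in the sources used here, so the levels of Rps15 and Rpl22 are uncertain.

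In wild-type neural tube the members carried about as many coding footprints per RNA count as the typical gene with a leader of up to 200 nt, and more than genes with long leaders. The median log2 ratio of footprint CPM to RNA CPM was 0.034, 0.024 and 0.029 in pools 1, 2 and 3. Over all 3 pools it was 0.035 for the members, 0.081 for genes with 41 to 100 nt, 0.015 between 100 and 200 nt, -0.18 between 200 and 500 nt, -0.40 above 500 nt and -0.080 for all 11791 genes. The rule used the wild-type RNA counts, so this is a description without a test. The spread within the members, with quartiles at -0.52 and 0.44, was wider than any of these distances between classes.

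**Figure D2:**
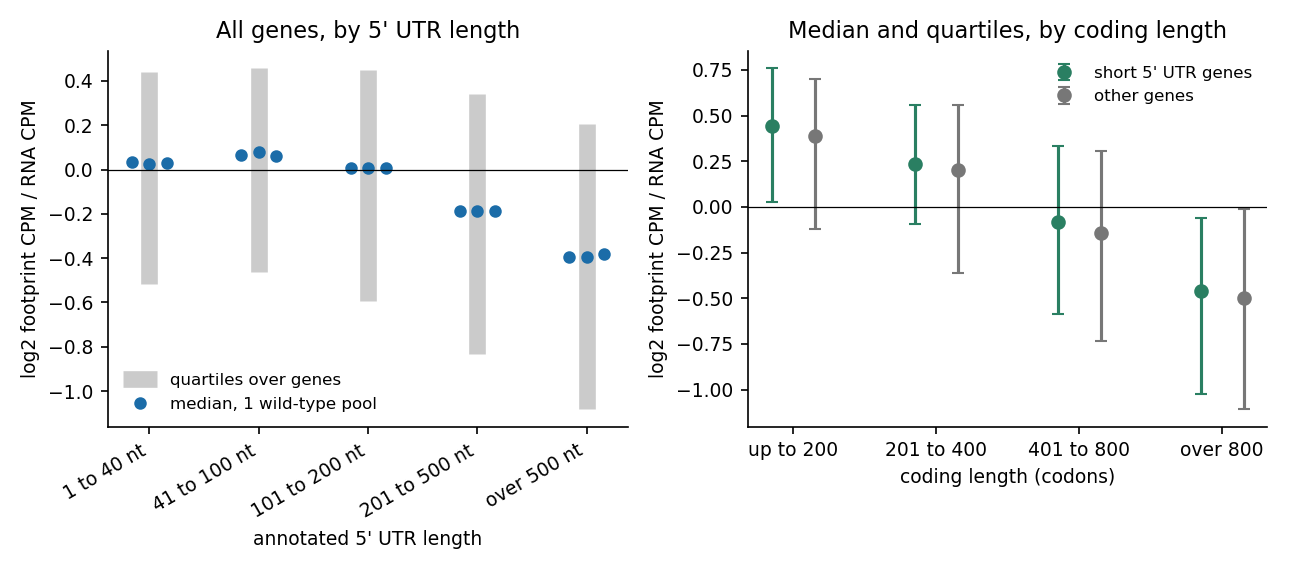
Left: log2 ratio of footprint CPM to RNA CPM in wild type by annotated 5' UTR length, with the median of each of 3 pools (points) and the quartiles over genes of the mean of the pools (grey bars). Right: median and quartiles of the same ratio for short 5' UTR genes (green) and all other genes (grey) by coding length; the medians run from 0.44 to -0.46 and from 0.39 to -0.50.

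Coding length went with the ratio more than leader length did. Members of up to 200 codons had a median log2 ratio of 0.44 and members of more than 800 codons one of -0.46. Other genes of the same coding lengths had 0.39 and -0.50, and between 200 and 400 codons the medians were 0.24 for members and 0.20 for other genes. At each of the 4 coding lengths the median of the members was slightly above that of the other genes, by less than the spread within either. Members with the TISU core had a median ratio of 0.19 and those without it -0.02, at median coding lengths of 451.5 and 452 codons. Other genes with the core, all with longer leaders, had 0.07.

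By family, the members of the respiratory chain had a median ratio of 0.66, those of the proteasome 0.56 and those of the mitochondrial ribosome 0.55. The same families over all measured genes had 0.54, 0.53 and 0.55. Members among cytosolic ribosomal proteins stood low, with a median of -1.24 beside -1.50 over all 73 measured, and numbered Zfp genes had -0.54 beside -0.55. Of the 10 cytosolic ribosomal protein members only 7 passed the filter on low counts in footprints. How reads that match several places were counted is not given, so the ratios of cytosolic ribosomal protein genes are uncertain. Members of the proteasome, mitochondrial ribosome and Zfp families stood near the median of the whole family. Those of the respiratory chain and the cytosolic ribosome stood somewhat above it.

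The highest ratios belonged to histone genes, whose mRNAs end in a stem-loop instead of a poly(A) tail, while the RNA libraries were made from poly(A) RNA. The histone H4 gene Hist2h4 had RNA at 11.7, 12.3 and 10.4 CPM and footprints at 825, 741 and 644 CPM in wild-type pools 1, 2 and 3, a log2 ratio of 5.94 ± 0.12 (SD, n = 3 pools). Hist3h2ba, an H2B gene, had 1.74 ± 0.16. Their copies are nearly identical, so reads may be shared among them. Outside the histones, the polarity scaffold Lin7c had 72.2, 74.6 and 70.6 CPM in RNA and 193, 184 and 180 CPM in footprints, a log2 ratio of 1.35 ± 0.06. The retrotransposon-derived gene Rtl8c followed with 1.34 ± 0.18 and the nucleotide hydrolase gene Nudt2 with 1.32 ± 0.18.

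At the low end, RNA was present with almost no footprints. Aoc2, an amine oxidase gene, had 17.5, 18.5 and 17.4 CPM in RNA and 0.356, 0.639 and 0.215 CPM in footprints, a log2 ratio of -4.37 ± 0.29. Tagap1, a GTPase-activating protein known from T cells, had -4.20 ± 0.23 although its start codon carries the strict TISU form. Nup210l, Prob1 and Ttll3 had -3.96 ± 0.09, -3.44 ± 0.44 and -3.16 ± 0.22. For Aoc2, Tagap1 and Nup210l no footprint at all was counted in the annotated 5' UTR in wild type.

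The 5' UTRs of the members held more footprints than their share of length, although they are shorter than or close to 1 footprint. The annotated 5' UTR took 1.41 to 1.48% of 5' UTR and coding counts in the 3 wild-type RNA libraries, and 3.91%, 4.39% and 3.95% in wild-type footprint pools 1, 2 and 3. Per nucleotide, footprint density in the 5' UTR was 3.06, 3.46 and 3.09 times that in the coding sequence without its ends, where RNA gave 1.03 to 1.08 times. At longer leaders the ratio was lower, with 2.28 to 2.33 at 41 to 100 nt, 1.70 to 1.71 between 100 and 200 nt and 0.756 to 0.765 above 500 nt.

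The counting affects these values. The parts of a transcript summed to 5.37 to 5.92% more than the whole in wild-type footprints of the members and to 2.77 to 2.87% more in RNA, so reads that cross a boundary are counted on both sides. A leader under 28 nt, as in 482 members, cannot hold a whole footprint, so its counts must come from reads that extend beyond it. The first 15 and last 5 codons took 6.48 to 6.82% of the members' coding footprints in wild type and 2.61 to 2.75% of coding RNA counts, at 3.30% of the length. Footprints thus exceeded RNA in the 5' UTR and at the ends of the coding sequence, and these columns do not separate the start from the stop codon.

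Single members differed by orders of magnitude in this measure. In wild type the most 5' UTR footprints were counted on the 4 nt leader of the histone H4 gene Hist1h4d (18689), followed by Hist3h2ba (15250), Eif3f (6115), Hist2h4 (5535) and the proteasome subunit gene Psma2 (5126). The median member had 143.5, and 774 members had at least 10. Histones made up 13.1% of the total. Without the 5 histone genes the 5' UTR share of the remaining 891 members was 3.51 to 4.10% in wild-type footprints.

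Several of the most abundant members had next to no 5' UTR footprints. Rps15 had 1 against 12047 coding footprints in wild type, with 44 RNA counts in its 28 nt leader. Rpl22 had 4 against 13845 and Klc1 had 4 against 65652 on a leader of 1 nt. For Hba-a2 neither assay gave a 5' UTR count. In all, 43 members had no 5' UTR footprint and 68 no 5' UTR RNA count in wild type. The mediator subunit gene Med12 and the adhesion receptor gene Adgrb2, also with 1 nt, had 4 and 0, and the Golgi protein gene Golgb1, with 2 nt, had 1.

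In the mutant the 5' UTR share of the members' footprints was 4.93%, 4.36% and 5.10% in pools 1, 2 and 3, above the wild-type range of 3.91 to 4.39% in pools 1 and 3 and inside it in pool 2. The RNA shares were 1.56%, 1.37% and 1.51% in the mutant and overlapped those of wild type. Per nucleotide, mutant density in the 5' UTR was 3.98, 3.44 and 4.13 times that in the coding sequence. The share of coding footprints at the sequence ends followed the same order of pools, with 8.61%, 7.06% and 8.62%. Classes with longer leaders showed it too: at 41 to 100 nt the density ratio was 2.28 to 2.33 in wild type and 2.36 to 2.78 in the mutant, and above 500 nt 0.756 to 0.765 and 0.785 to 0.908. With 3 pools against 3 and a pooled sum over the members no test is given.

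**Figure D3:**
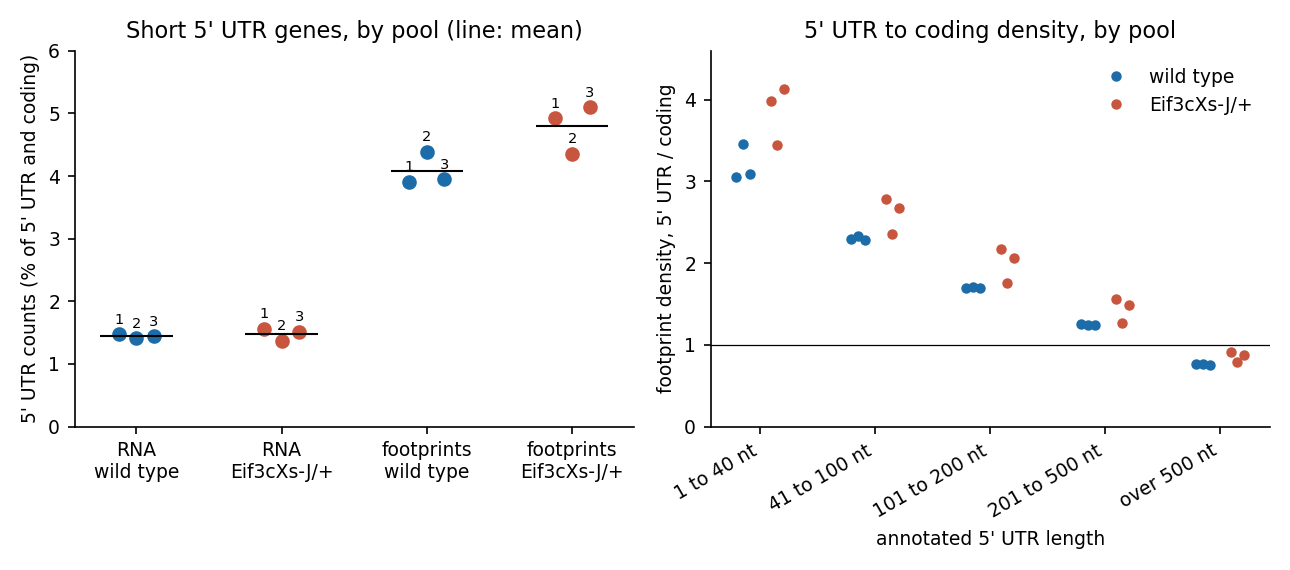
Left: share of 5' UTR counts among 5' UTR and coding counts of the 896 short 5' UTR genes (%) in each pool (numbered points) and their mean (line), for RNA and footprints of wild type (blue) and Eif3cXs-J/+ (red). Right: footprint density in the 5' UTR divided by that in the coding sequence without its ends, by annotated 5' UTR length, 1 point per pool; wild type runs from 3.06 to 3.46 in the shortest class to 0.756 to 0.765 in the longest.

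Eif3f and the histone genes show how far single members departed from the sum. The Eif3f 5' UTR held 12%, 11.8% and 11.8% of its 5' UTR and coding footprints in wild-type pools 1, 2 and 3 and 13.8%, 16.7% and 13.8% in the mutant, without overlap. For Hist1h4d the order was opposite, with 16.2%, 11.7% and 15.9% in wild type and 10.5%, 5.71% and 11% in the mutant. Hist3h2ba had 28.4 to 30.3% and 30.0 to 33.2%, which overlap, as did the values of Psma2, 14.5 to 17.0% and 14.4 to 18.4%. Hist2h4 had 4.33 to 7.32% in wild type and 7.79 to 9.71% in the mutant. The genes named here had the most 5' UTR footprints in wild type. The share of all members whose pools do not overlap in this measure is not given, so the separations are values only.

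For the genotype comparison, RNA and footprints were tested gene by gene over the whole table with edgeR's quasi-likelihood test, with p-values adjusted by Benjamini-Hochberg over all genes. In RNA, 1 of 896 members passed an adjusted p of 0.05, and it was lower in the mutant; of all 13406 genes tested, 0.164% were called lower and 0.224% higher. In bulk pools such as these, a smaller number of cells of a type and less RNA per cell cannot be told apart. The gene was Atp9a, a phospholipid flippase of endosomes, with RNA at 176, 174 and 174 CPM in wild type and 104, 142 and 107 CPM in mutant pools 1, 2 and 3. The groups do not overlap and mutant pool 2 is the nearest to wild type. The log2 fold was -0.57 ± 0.10 (SE, n = 3 pools against 3; adjusted p = 0.0391 by edgeR). The call was lost when any wild-type pool (adjusted p = 0.186 to 0.250) or mutant pool 3 (0.209) was left out, with the whole coding sequence counted (0.0508) and with offsets for coding GC content (0.118), at log2 folds of -0.74 to -0.49 over all 13 alternatives, whose adjusted p ran from 8.3e-05 to 0.250.

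The other members of smallest p in RNA missed the threshold and are given as values. Apc2, a neuronal relative of the tumour suppressor Apc, had 705, 772 and 772 CPM in wild type and 492, 611 and 558 CPM in the mutant, a log2 fold of -0.44 ± 0.08 (adjusted p = 0.0502; 1.8e-04 to 0.258 over 13 alternatives). Cmip had 253, 273 and 263 CPM and 189.5, 227.5 and 203 CPM (-0.35 ± 0.07, adjusted p = 0.0586). In both genes every mutant pool was under every wild-type pool, as in 11% of all genes. The summed neuron markers, 10 of 10 detected, were also lower in every mutant pool in RNA (4915 to 5021 CPM against 3793 to 4583 CPM), and their part in these values was not tested. Hist3h2ba and the ubiquitin ligase gene Trim35 had log2 folds of -0.35 ± 0.09 and -0.21 ± 0.06 (adjusted p = 0.0745 and 0.0919).

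On the higher side of RNA, the telomere-binding protein gene Terf1 had 36.6, 37.3 and 42.1 CPM in wild type and 50.9, 47.9 and 49.2 CPM in the mutant. Shcbp1, known from dividing cells, had 61.7, 52.5 and 58.1 CPM and 76.4, 68.6 and 72.9 CPM. The importin gene Ipo5 had 524, 509.9 and 477 CPM and 604, 587 and 662 CPM. In these 3 genes the groups do not overlap, as in 11.2% of all genes on the higher side. Their log2 folds were 0.36 ± 0.08, 0.34 ± 0.08 and 0.29 ± 0.07, with adjusted p of 0.0696, 0.0698 and 0.0706. Emid1, which encodes an extracellular protein, had 0.46 ± 0.12 and the peptidylprolyl isomerase gene Ppwd1 0.30 ± 0.08 (adjusted p = 0.0842 and 0.0886).

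In footprints, 1 of the 884 members that passed the filter on low counts was called, and it was higher in the mutant; of all 13423 genes tested, 0.223% were called higher and 0.0298% lower. The gene was Hba-a2, an adult alpha-globin gene, with footprints at 25.3, 29.2 and 28.4 CPM in wild type and 56.5, 62.2 and 40.2 CPM in mutant pools 1, 2 and 3, which do not overlap. The log2 fold was 0.94 ± 0.15 (SE, n = 3 pools against 3; adjusted p = 0.0466 by edgeR). In RNA the same gene had 13.4, 13.5 and 14.7 CPM and 35.1, 22.3 and 13.5 CPM, which overlap (log2 fold 0.79 ± 0.26, adjusted p = 0.147). The call was lost without any wild-type pool (adjusted p = 0.185 to 0.229), without mutant pool 1 (0.104), with coding GC offsets (0.0624) and when the 4 incomplete footprint lanes were counted too (0.160), and adjusted p ran from 2.8e-06 to 0.229 over 14 alternatives.

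Hba-a2 marks red blood cells, which the neural tube pools can hold, and has a near-identical neighbour, Hba-a1. Of 14 erythroid markers 13 were counted and none of these was at 0. Their summed RNA was 2758 to 3416 CPM in wild type and 6513, 3446 and 2873 CPM in mutant pools 1, 2 and 3, and their summed footprints were 8706 to 9923 CPM and 14286, 8897 and 8138 CPM. The sum was thus far above wild type in mutant pool 1 and near or within its range in pools 2 and 3, while Hba-a2 footprints were higher in each mutant pool. The part of blood cells in the Hba-a2 value was not tested.

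**Figure D4:**
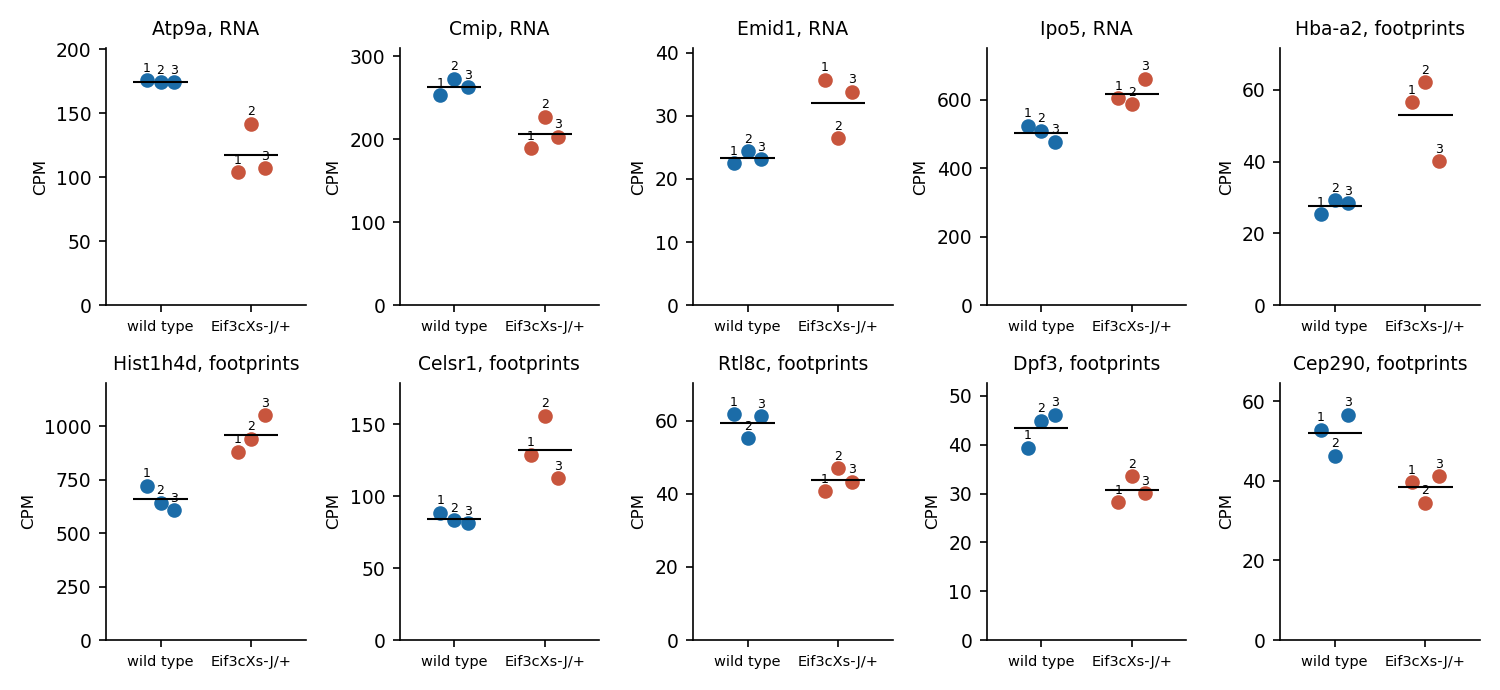
Levels (CPM) of 10 short 5' UTR genes in each pool (numbered points) with the mean (line), in RNA or footprints as titled, for wild type (blue) and Eif3cXs-J/+ (red). In every panel the pools of the genotypes do not overlap, while only Atp9a in RNA and Hba-a2 in footprints passed the adjusted threshold. The genes are among those of smallest p in their direction. Of all genes, 11.2% were higher and 11% lower without overlap in RNA, and 14.4% and 14.8% in footprints.

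The next members in footprints missed the threshold. Hist1h4d had 723, 644 and 609 CPM in wild type and 881, 943 and 1053 CPM in the mutant, a log2 fold of 0.54 ± 0.09 (adjusted p = 0.0521). Celsr1, an atypical cadherin of planar cell polarity, had 88.7, 83.5 and 81.4 CPM and 129, 156 and 113 CPM (0.65 ± 0.11, adjusted p = 0.0521). Their RNA log2 folds were 0.01 ± 0.21 and 0.11 ± 0.11. Emid1 had 0.70 ± 0.13 and the RNA exosome gene Exosc6 0.59 ± 0.11 (adjusted p = 0.0611 and 0.0659). With coding GC offsets the values were 0.35 for Hist1h4d and 0.19 for Exosc6, and with the incomplete lanes counted Emid1 had 1.16. In all 4 genes every mutant footprint pool was above every wild-type pool, as in 14.4% of all genes.

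The members of smallest p on the lower side of footprints also missed the threshold and differed in their RNA values. Rtl8c had 61.8, 55.2 and 61.3 CPM in wild type and 40.8, 46.9 and 43.4 CPM in the mutant (log2 fold -0.45 ± 0.08, adjusted p = 0.0659), with an RNA log2 fold of -0.30 ± 0.11. Dpf3, a subunit of the BAF chromatin remodelling complex, had 39.4, 44.9 and 46.2 CPM and 28.3, 33.6 and 30.1 CPM (-0.50 ± 0.10, adjusted p = 0.0686), with -0.37 ± 0.15 in RNA. Cep290, a protein of the ciliary transition zone, had 52.8, 46.3 and 56.6 CPM and 39.7, 34.5 and 41.2 CPM (-0.44 ± 0.10, adjusted p = 0.0854), with -0.01 ± 0.08 in RNA. The Cep290 footprint value was -0.19 with coding GC offsets and -0.068 with the incomplete lanes counted. In these 3 genes the footprint pools of the genotypes do not overlap, as in 14.8% of all genes on the lower side. Klc1 and the receptor phosphatase gene Ptprd had -0.27 ± 0.07 and -0.26 ± 0.07 (adjusted p = 0.0967 and 0.102), beside summed neuron marker footprints of 8455 to 9211 CPM in wild type and 6872 to 8069 CPM in the mutant, whose part was not tested. With coding GC offsets Ptprd had -0.16.

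**Figure D5:**
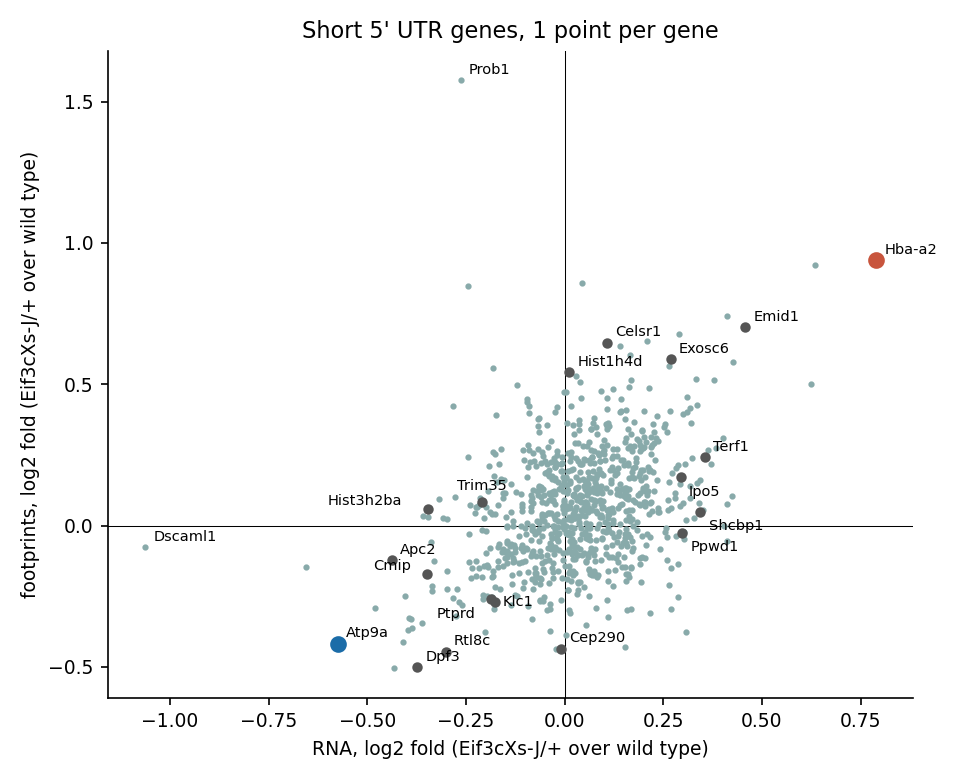
Log2 fold of each of the 884 short 5' UTR genes tested in both assays, RNA on the horizontal and footprints on the vertical axis, Eif3cXs-J/+ over wild type. Atp9a (blue) passed in RNA and Hba-a2 (red) in footprints. Dark points are the other genes of smallest p in either direction. Also labelled, with pale points, are 2 genes at the edge, Prob1 and Dscaml1, whose SE are 0.57 in footprints and 0.36 in RNA.

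Over the members as a class, small differences leaned to the higher side. In footprints, 184 members (20.8%) had every mutant pool above every wild-type pool and 84 (9.50%) every mutant pool below, beside 14.4% and 14.8% of all genes. In RNA the counts were 116 (12.9%) and 72 (8.04%), beside 11.2% and 11% of all genes. The median log2 fold of the members was 0.035 in RNA and 0.060 in footprints, beside 0.013 and 0.014 over all genes tested. All genes tested, here as in every comparison of the genotypes, include genes under the members' count minimum. Over the genes with that minimum the medians were 0.0079 and 0.0045. Pool by pool, the members' median footprint difference from the wild-type mean was 0.090, 0.011 and 0.055 in mutant pools 1, 2 and 3, so mutant pool 2 hardly differed from wild type. Members have a median coding GC content of 54.9%, beside 53.1% over all genes, and with offsets for coding GC the footprint medians were 0.038 for the members and 0.020 for all genes. The RNA medians with these offsets were 0.042 and 0.012.

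Median log2 folds fell with leader length in footprints and in RNA. Median footprint log2 folds were 0.060 at 1 to 40 nt, 0.046 at 41 to 100 nt, 0.0051 between 100 and 200 nt, -0.019 between 200 and 500 nt and -0.043 above 500 nt. With GC offsets they were 0.038, 0.051, 0.019, -0.0041 and -0.042, highest at 41 to 100 nt. In RNA the medians were 0.035, 0.029, 0.014, -0.0079 and -0.036 in the same order of classes. With GC offsets the RNA medians were 0.042, 0.033, 0.0084, -0.010 and -0.046, which fall along leader length too. The medians of the change in footprints beyond that in RNA were 0.047, 0.035, 0.013, 0.0054 and 0.024. With GC offsets those were 0.020, 0.027, 0.028, 0.019 and 0.023, without a steady fall along leader length. Within the members the footprint medians were 0.055, 0.061, 0.073 and 0.049 from the shortest to the longest 10 nt step. With GC offsets they were -0.0090, 0.036, 0.051 and 0.036, lowest at the shortest leaders. The footprint medians were 0.054 with and 0.061 without the TISU core, and 0.045 and 0.036 with GC offsets.

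At an unadjusted p under 0.05, 127 members (14.2%) differed in RNA, beside 17.5% of all genes. Of these 77 (8.59%) were higher and 50 (5.58%) lower, beside 8.29% and 9.24% of all genes. In footprints 198 members (22.4%) differed, beside 22.8% of all genes, with 141 higher and 57 lower, beside 11.7% and 11.1% of all genes. DESeq2 called 13 members in RNA (1.45%, beside 3.04% of all genes), 6 higher and 7 lower (0.985% and 2.06% of all genes). In footprints it called 55 (6.22%, beside 6.25% of all genes), 37 higher and 18 lower (3.32% and 2.94% of all genes). Leaving out mutant pool 2 raised the number of calls among the members as among all genes. In RNA 35 members were then called higher and 28 lower, with 4.15% and 7.1% of all genes. In either direction that was 7.03% of members and 11.3% of all genes. In footprints 112 were called higher and 44 lower, with 7.64% and 9.49% of all genes. In either direction that was 17.6% of members and 17.1% of all genes.

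Translational efficiency, the change in footprints beyond that in RNA, was tested in 1 model of all 12 libraries, as the genotype-by-assay term. With edgeR, in a model that leaves out the pairing of RNA and footprints by pool, 0 of 896 members passed, and 0% of all 13877 genes did. At an unadjusted p under 0.05, 112 members (12.5%, beside 9.84% of all genes) differed, 68 (7.59%) higher and 44 (4.91%) lower, beside 5.77% and 4.07% of all genes. DESeq2 called 1 member, Trim35, which was higher, and 0.115% of all genes higher and 0.0288% lower. With the cell pool as a replicate block, a true pairing since RNA and footprints of a pool share their cells, 2 members were called higher (Emc10 and Shank3, with 0.512% of all genes) and 2 lower (Knl1 and Thoc2, with 0.303%). The median log2 change of the members was 0.047 beside 0.020 over all genes, and with coding GC offsets 0.020 beside 0.024.

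The members of smallest p on the higher side were Ccdc62, Emc10, Trim35, Maz and Shank3. Emc10, a subunit of the endoplasmic reticulum membrane complex, had RNA at 76.5, 79.1 and 71.3 CPM in wild type and 70.4, 66.7 and 66.3 CPM in the mutant, and footprints at 84.9, 92.1 and 85.7 CPM and 117, 97.9 and 102 CPM. RNA was thus lower and footprints higher in every mutant pool, at a log2 change of 0.45 ± 0.11 (adjusted p = 0.332). Shank3, a postsynaptic scaffold, had footprints at 20.7, 20.5 and 20.7 CPM and 41.8, 46.0 and 24.7 CPM with overlapping RNA (0.83 ± 0.22, adjusted p = 0.425). Ccdc62, with footprints of 1.04 to 2.21 CPM in the libraries, had 1.11 ± 0.25, the zinc finger factor gene Maz 0.41 ± 0.11 and Trim35 0.31 ± 0.08 (adjusted p = 0.302, 0.398 and 0.398). With coding GC offsets the values of Emc10, Maz and Trim35 were 0.20, 0.13 and 0.12. With the cell pool as a block, adjusted p by edgeR was 0.0368 for Emc10 and for Shank3. For Maz, Ccdc62 and Trim35 it was 0.0511, 0.0588 and 0.0677.

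On the lower side stood Zfp626, Thoc2, Knl1, Cep290 and Crbn. Knl1, a kinetochore scaffold, had RNA at 152, 150.0 and 142 CPM in wild type and 154, 183 and 197 CPM in the mutant, and footprints at 129, 122.7 and 120.5 CPM and 103, 94.6 and 124 CPM, which overlap. Its log2 change was -0.46 ± 0.14 (adjusted p = 0.430). Thoc2, a subunit of the mRNA export complex TREX, had footprints at 204, 196 and 212 CPM and 156, 181 and 171 CPM, without overlap (-0.36 ± 0.10, adjusted p = 0.430). With coding GC offsets the Thoc2 value was 0.0079, of opposite sign. Zfp626 had -0.51 ± 0.14, Cep290 -0.41 ± 0.14 and Crbn, the substrate receptor of a ubiquitin ligase, -0.36 ± 0.12 (adjusted p = 0.430, 0.432 and 0.432). With coding GC offsets Zfp626 had -0.32, Crbn -0.15, Knl1 -0.034 and Cep290 -0.025, and Cep290 had -0.045 with the incomplete lanes counted. With the cell pool as a block, adjusted p by edgeR was 0.0380 for Knl1 and 0.0418 for Thoc2. For Cep290, Zfp626 and Crbn it was 0.0569, 0.0696 and 0.0927.

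By family no member passed in any of the 3 tests except Hba-a2 among the erythroid markers. Footprint log2 folds were above 0 for 60.6% of the members and 52.4% of all genes tested. Of the 10 cytosolic ribosomal protein members only 7 passed the filter on low counts in footprints. All 7 had values above 0, from 0.10 for Rps15 to 0.63 for Rpl37a. Their median was 0.30, beside 0.27 for all measured genes of the family. Of these Rpl37 had 86.9, 80.1 and 82.1 CPM in wild type and 132, 88.0 and 110 CPM in the mutant, higher in every pool (log2 fold 0.40 ± 0.13, adjusted p = 0.124). The counting of reads that match several places is not given, so the values of cytosolic ribosomal protein genes are uncertain. Mitochondrial ribosomal protein members were above 0 in 18 of 19, with a median of 0.12 beside 0.10, and Mrpl27 was the highest at 0.40 ± 0.11 (adjusted p = 0.111). Respiratory chain members were above 0 in 10 of 12 (median 0.12 beside 0.05), led by Ndufa2 of complex I with 0.36 ± 0.07 (adjusted p = 0.0686) and Ndufa12. In RNA, 7 of 10 cytosolic and 13 of 19 mitochondrial ribosomal protein members were above 0, with medians of 0.17 and 0.08. Of the respiratory chain members 6 of 12 were, with a median of 0.0015. The RNA shares above 0 were 60.3% of the members and 53.2% of all genes tested.

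The remaining families varied. The 9 proteasome members ranged from -0.07 to 0.13 in footprints, with a median of 0.05, the value of the whole family. Histone members were above 0 in all 5, from 0.06 to 0.54, beside RNA values from -0.35 to 0.12. Of the eIF3 subunits, Eif3b, Eif3e and Eif3f had footprint log2 folds of 0.20, 0.06 and 0.07 and none was called, while Eif3c itself, with a longer leader, was -0.98 ± 0.07 (adjusted p = 0.0013). The Hedgehog coreceptor gene Cdon and the ciliary kinesin gene Kif7 had 0.16 and 0.20, and Sox2 had 0.08, with footprints at 273, 266 and 245 CPM in wild type and 273, 257 and 300 CPM in the mutant. The 16 numbered Zfp members ranged from -0.37 to 0.40 with a median of 0.08, beside -0.16 over the 310 measured.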

How the data were processed

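The authors deposited whole-number read counts per transcript region and lane. Per the submitters' processing notes, cutadapt, STAR, bedtools and the mm10 build were used; versions, strand and the treatment of multiply mapped reads: not given in the sources used here. Counts were deposited by the authors both for the whole coding sequence and without its first 15 and last 5 codons; the latter were used. Lanes and runs were summed per library, without the 4 incomplete lanes of mutant footprint pool 1. Of 122941 transcripts, 121271 matched GENCODE vM21 with version, 1522 without version and 148 not at all. The members and gene lists were chosen with earlier results of these data known.

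RNA, footprints and their interaction were fitted on all genes with edgeR 4.0.16 (TMM, quasi-likelihood test, filterByExpr with a minimum count of 10 and total of 15; R 4.3.3) and Benjamini-Hochberg adjustment. DESeq2 1.42.0 and limma 3.58.1 were alternatives. Ratios used CPM plus 0.5. Tables and plots used Python 3.11.15, pandas 2.3.3, NumPy 2.4.6 and Matplotlib 3.10.9. The fitting steps were tested on simulated data. RNA and footprints of a pool are paired because they share cells; their deviations from group means correlated at 0.32 to 0.64 across genes.

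The text names the members of smallest p per direction (up to 10 called, otherwise 5 as values), the 8 most abundant per kb, the 5 highest and lowest ratios with at least 300 RNA counts, the 5 shortest, 3 on each side of the limits, up to 4 per list, up to 8 with the TISU core and the 5 with most 5' UTR footprints. Others named were chosen after their values were seen. Some members that this rule names are not reported here.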

Additional observations from a re-analysis of the deposited data

How the results depend on the processing

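Calls among the members depended on the tool and on single pools. In RNA, 1 member was called in the reported fit, 13 with DESeq2, 2 with limma-voom, 13 without a filter on low counts, 0 with the whole coding sequence, 0 with coding GC offsets and 0 to 63 when 1 pool was left out. In footprints, 1 was called, against 55 with DESeq2, 10 with limma-voom, 14 without a filter, 3 with the whole coding sequence, 0 with coding GC offsets, 0 with the incomplete lanes added and 0 to 156 when 1 pool was left out. Over all genes DESeq2 called 132 higher and 276 lower in RNA and 445 and 394 in footprints, where edgeR called 30 and 22, and 30 and 4. For translational efficiency 0 were called, against 1 with DESeq2 and 0 to 1 when 1 pool was left out. The cause of these differences was not tested.

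With the pool number as a replicate block, 4 members were called in RNA and 2 in footprints. In translational efficiency the replicate block was the cell pool itself, which pairs RNA with footprints, and 4 were called. The labels give wild-type and mutant pools the same numbers and do not say whether same-numbered pools were prepared together. Deviations of same-numbered pools correlated at 0.07 to 0.17 in RNA and -0.15 to 0.02 in footprints. A shared preparation was not tested.

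The members' median change in translational efficiency, 0.047, was 0.066 with the whole coding sequence, 0.020 with coding GC offsets and 0.028 to 0.057 when 1 pool was left out. The median wild-type ratio, 0.035, was -0.0053 for leaders of 1 to 30 nt, 0.052 for 1 to 60 nt, 0.12 where every coding transcript had at most 40 nt, 0.019 with at least 300 counts, 0.046 with the whole coding sequence and 0.028 to 0.045 when 1 pool was left out. Of single genes, Thoc2 reversed in translational efficiency with coding GC offsets (0.0079), and those of Knl1 (-0.034) and Cep290 (-0.025) came close to 0.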
